A study of Homo sapiens with 9 samples.

Results

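ALL-SIL is a line derived from T-cell acute lymphoblastic leukaemia (T-ALL), and its cells were electroporated with siRNA s46 or siRNA s47, both directed at TLX1. The 3 libraries with s46 were set against the 3 libraries with s47, which makes 6 of the 9 libraries of the series, all taken at 24 h. The remaining 3 libraries, given a scrambled siRNA at 400 nM, entered only where stated. The labels give no dose for s46 or s47. They also do not state what a replicate is (a culture, or a repeat of 1 culture), and the p-values cover no more than the spread among these libraries, which could be technical.

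TLX1 is a homeobox transcription factor that is switched on out of place in a subset of T-ALL. An siRNA is loaded into an Argonaute protein, and its guide strand directs cleavage of a transcript that it matches along its length. Guide strands can also lower other transcripts that match only bases 2 to 8, the seed, mostly through sites in 3′ untranslated regions (3′ UTRs), as microRNAs do. A pair of siRNAs with the same target is therefore commonly used to separate effects of the target from effects of the sequence, and the comparison asks where the 2 groups differed. The base sequences of s46 and s47 are not given in any source used here.

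Sense reads in genes numbered 26850073 to 33393740 per library. Reads assigned to no gene on the sense strand made up 32.3%, 26.3% and 27.2% of reads with s46 (replicates 1, 2 and 3). With s47 they made up 28.7%, 29.5% and 23.8%. The share was thus higher with s46 in numbers 1 and 3 and lower in number 2. Such reads can be antisense to a gene, so they need not lie outside genes. All 16 T-lineage markers on the list were expressed, at a summed level of 3054.9 to 3286.2 CPM (sense gene counts relative to the TMM-scaled library size) with s46 and 3118.1 to 3247.0 with s47. None of 12 myeloid markers passed the filter on low counts, and 5 of them had no read in any of the 6 libraries.

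TLX1 (ENSG00000107807.12, chromosome 10, 101130505 to 101137789, GRCh38) was at nearly the same level with both siRNAs. It stood at 62.9, 85.8 and 77.1 CPM with s46 and at 63.0, 72.4 and 74.0 CPM with s47. The groups overlapped, and number 1 was the lowest in both. The log2 difference, s46 minus s47, was 0.11 ± 0.12 (SE), with a 95% interval of -0.15 to 0.37 (edgeR adjusted p 1). When all 9 libraries were scaled together, mean TLX1 was 41.2% of the scrambled mean with s46 and 38.1% with s47.

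With the group as the only term, 0 of 15388 genes passed an adjusted p of 0.05 by edgeR (0%), while 189 had an unadjusted p under 0.05. DESeq2 called 3 genes (SHMT1, EZR and RGS1, chosen here after their values were seen) and limma-voom 0. The 95% interval of the difference lay within 1.5-fold in either direction for 9681 genes (62.9%). For the other genes a difference of that size was not bounded by these libraries.

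The replicate number was also fitted as a block, which compares s46 with s47 within each number. Libraries that carried the same number deviated together from their group means, although a blocked fit had been run before this was computed. With this block 147 genes passed, 54 higher with s46 (0.351% of those tested) and 93 lower (0.604%). In 1188 genes the unadjusted p was under 0.05. The differences were small: 6 of the 147 exceeded 1.5-fold, and the smallest was 0.18 on the log2 scale. The count rested on the choice of libraries. It was 13 without number 3, of which 10 were among the 147, 307 without number 2 and 173 without number 1, and it was 0 when all 9 libraries were fitted with the block. The direction of the split rested on it too, with 99 higher and 74 lower without number 1, 147 and 160 without number 2, and 8 and 5 without number 3. On data simulated from these libraries, the fit with the block made 11 false calls in 197 under one model of the spread and 40 in 231 under another, so the 147 may hold more false calls than the nominal 5%.

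**Figure D1:**
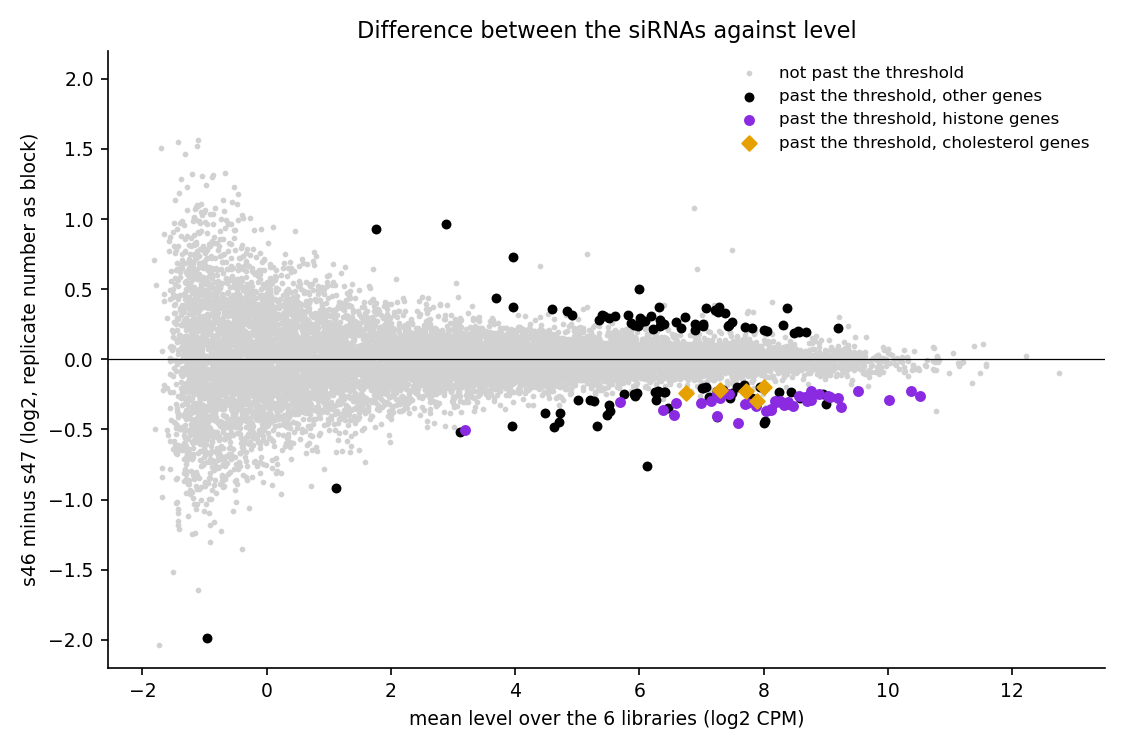
Difference between s46 and s47 (log2, vertical axis, replicate number as a block) against the mean level over the 6 libraries (log2 CPM, horizontal axis), 1 point per gene for 15388 genes. Coloured and black points are the 147 genes past an adjusted p of 0.05; 54 lie above 0, and the histone (violet) and cholesterol (yellow) genes among them all lie below 0.

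The lowest p-value among the genes lower with s46 was that of SHMT1, the cytosolic enzyme that moves a one-carbon unit from serine to folate (chromosome 17, 18327860 to 18363563). Its level was 54.1, 45.5 and 55.6 CPM with s46 against 102.7, 74.8 and 86.5 CPM with s47. The groups did not overlap, and within numbers 1, 2 and 3 the log2 difference was -0.93, -0.72 and -0.64. With the block the log2 difference was -0.76 ± 0.059 (SE; edgeR adjusted p 1.66e-08), and it passed in each blocked fit except that of all 9 libraries (adjusted p 0.625).

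Ezrin, encoded by EZR, which ties the cell membrane to actin, stood at 214.8, 213.8 and 236.9 CPM with s46 and at 304.9, 296.6 and 299.9 CPM with s47. The log2 difference was -0.44 ± 0.046 (SE; edgeR adjusted p 4.52e-06 with the block). GSTP1, a glutathione transferase, followed with 197.4, 221.9 and 231.7 CPM against 296.7, 279.1 and 317.8 CPM. U2AF2, the large subunit of the factor that recognises the polypyrimidine tract in splicing, was at 118.2, 135.1 and 136.3 CPM against 165.8, 177.0 and 175.0 CPM. In these 3 genes every s46 library lay below every s47 library. Like SHMT1, they were named for their low p-values, which favours such separation. The share of all genes tested that separated is not given here. MAF1, a repressor of RNA polymerase III, and RPL37, a protein of the large ribosomal subunit, were also lower with s46 (log2 difference -0.35 and -0.32). EZR, GSTP1 and U2AF2 still passed without number 3, at adjusted p of 0.00226, 0.00929 and 0.00929, while MAF1 and RPL37 did not (0.108 and 0.109).

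Among the genes higher with s46, RGS1, which speeds up the switching off of G proteins, differed by 0.97 ± 0.12 (SE) on the log2 scale (edgeR adjusted p 6.02e-05 with the block). It was at 11.6, 7.31 and 10.5 CPM with s46 and at 5.42, 4.25 and 5.22 CPM with s47. PDE4D, which breaks down cyclic AMP, stood at 17.5, 17.6 and 23.3 CPM against 10.2, 11.0 and 14.1 CPM, a difference of 0.73 ± 0.090 (SE; adjusted p 4.12e-05). Neither gene overlapped between the groups, and both passed without number 3 (adjusted p 0.0154 each). Both were named for their low p-values, which favours a lack of overlap. PDE3B, another cyclic nucleotide phosphodiesterase, was higher by 0.27 on the log2 scale.

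SLAIN2, a protein of growing microtubule ends, was at 84.3, 70.0 and 67.5 CPM with s46 and at 70.4, 42.3 and 46.9 CPM with s47, a log2 difference of 0.50 ± 0.068 (SE; edgeR adjusted p 0.000258 with the block). Its groups overlapped, because s47 replicate 1, at 70.4 CPM, lay above s46 replicates 2 and 3. EIF4G1, the scaffold of the cap-binding translation initiation complex, stood at 369.6, 424.1 and 325.7 CPM against 317.7, 292.8 and 255.3 CPM. RRAS2, a Ras-related GTPase, stood at 194.6, 170.0 and 159.7 CPM against 163.4, 122.9 and 121.0 CPM. DDHD2, a phospholipase, PLEKHA8, a lipid transfer protein, RRAGD, a GTPase that activates mTORC1 at lysosomes, ANO6, a phospholipid scramblase, PPP1R16B and PRR11 were higher by 0.30 to 0.37 on the log2 scale. Of these 8 genes beside SLAIN2, PLEKHA8 and RRAGD passed without number 3 (adjusted p 0.0212 and 0.00929), as SLAIN2 did (0.0380). RRAGD did not pass without number 2 (0.234).

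**Figure D2:**
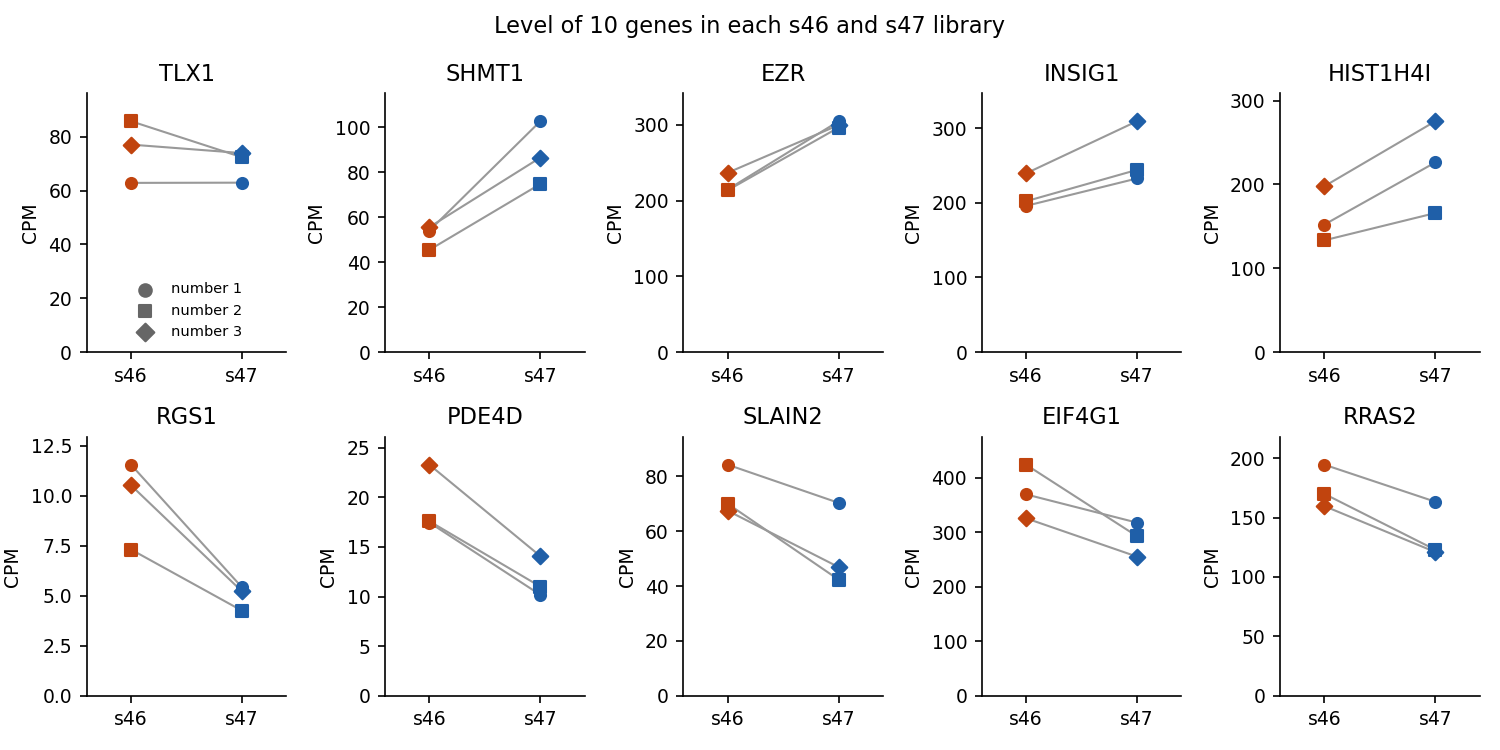
Level in CPM (vertical axes, from 0) of 10 genes in each library, s46 at left and s47 at right in each panel; marker shape gives the replicate number and lines join libraries of the same number. TLX1 lies between 62.9 and 85.8 CPM in all 6 libraries, while the other 9 genes differ in 1 direction within every number.

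The largest group among the lower genes was the replication-dependent histones, which package newly made DNA, are transcribed mainly in S phase and end in a stem-loop in place of a poly(A) tail. Of 71 listed genes 60 were tested, and with the block 40 were lower with s46 and 0 higher. Over all genes tested 0.604% were lower and 0.351% higher. The histone median log2 difference was -0.31, against -0.0037 over all genes tested. Within all 3 numbers 48 of the 60 were below 0, against 2388 of all 15388 genes tested. In fits without the block that left out 1 library, the median was -0.19 without s46 replicate 2, -0.18 without s47 replicate 1 and -0.47 without s47 replicate 2. With the group as the only term none passed.

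Calls came from every class: 3 of 5 tested genes of linker histone H1, 10 of 13 of H2A, 11 of 17 of H2B, 7 of 12 of H3 and 9 of 13 of H4. Summed over the 60 genes, the level was 16315.9, 12687.3 and 16107.5 CPM with s46 and 21939.2, 13478.0 and 20140.5 CPM with s47. The s46 sum was thus 74.4%, 94.1% and 80.0% of the s47 sum in numbers 1, 2 and 3. The groups overlapped, since number 2 was low with both siRNAs. HIST1H4I, an H4 gene (chromosome 6, 27138588 to 27139881), was at 152.2, 133.4 and 197.9 CPM against 226.3, 165.9 and 275.4 CPM, a log2 difference of -0.46 ± 0.050 (SE; edgeR adjusted p 6.26e-06 with the block).

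The 5 classes had median log2 differences of -0.25 (H1) to -0.33 (H2A). HIST1H2BJ, HIST1H3G, HIST1H4B and HIST1H4L had log2 differences of -0.33 to -0.40. Without number 3, HIST1H4I was the 1 histone gene of 60 that passed, and without number 1 there were 24. Histone genes are near-identical copies, so the authors' count of each can be uncertain. The 39 genes of the G1/S and DNA replication list had a median of -0.054, with 32 below 0 and none past the threshold. Of all 15388 genes tested, 7913 were below 0. The histone medians within numbers 1, 2 and 3 were -0.45, -0.10 and -0.33. The share of reads assigned to no gene was higher with s46 in the same 2 numbers where the medians were lowest. Its part in the result was not tested.

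Genes of cholesterol synthesis and its control by SREBP made a smaller group. Of 22 tested, 5 were lower with s46 with the block, 0 were higher, and 21 had a log2 difference below 0, with a median of -0.14. Of all 15388 genes tested, 0.604% were lower with the block and 0.351% higher, and 7913 had a log2 difference below 0. INSIG1, which holds the SREBP escort protein in the endoplasmic reticulum and is itself an SREBP target, stood at 195.8, 202.0 and 239.3 CPM with s46 and at 232.5, 244.0 and 309.1 CPM with s47 (log2 difference -0.30 ± 0.045 SE; edgeR adjusted p 0.000502 with the block). SQLE, MSMO1 and HMGCS1, enzymes of the pathway, differed by -0.20 to -0.24 on the log2 scale. The group medians were -0.19, -0.044 and -0.23 in numbers 1, 2 and 3, and none of the 22 passed without number 3.

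**Figure D3:**
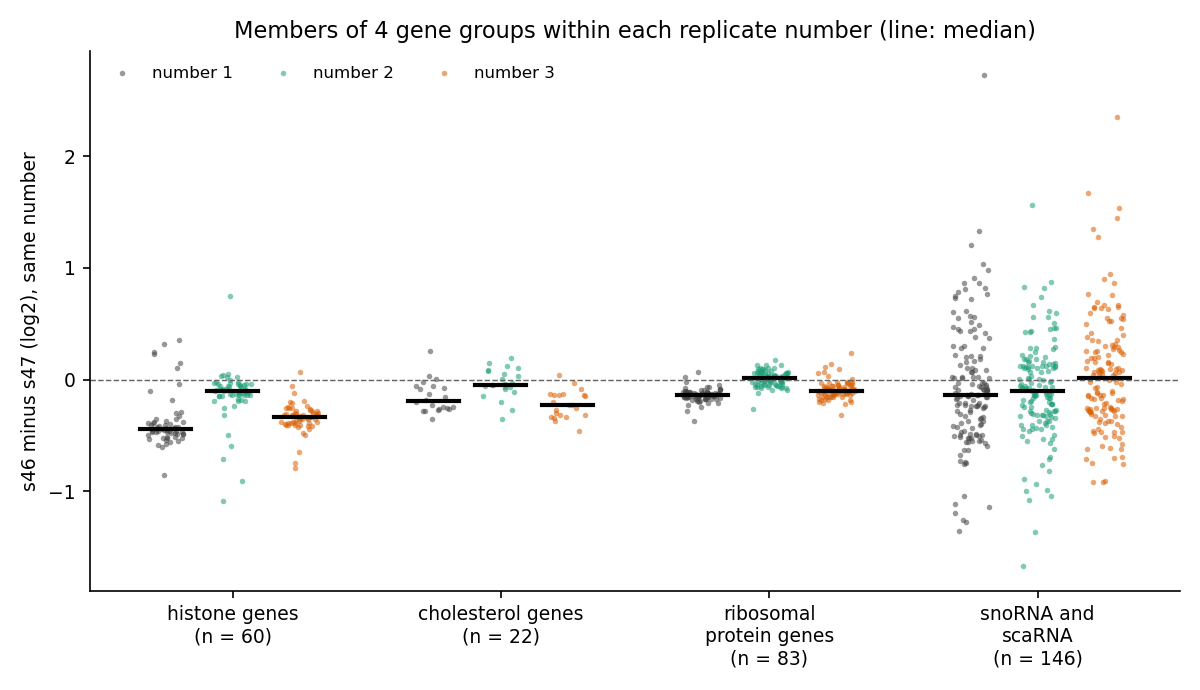
Log2 difference, s46 minus s47, between the 2 libraries of the same replicate number (vertical axis), 1 point per gene, for histone, cholesterol, ribosomal protein and small nucleolar or Cajal body RNA genes; black lines are medians. The histone medians are -0.45, -0.10 and -0.33 in numbers 1, 2 and 3, and the ribosomal protein medians are -0.14, 0.017 and -0.10.

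Cytosolic ribosomal protein genes had the numbers in the same order as the histones, with medians of -0.14, 0.017 and -0.10, and RPL37 was the 1 of 83 that passed. In fits without the block their median was above 0 without s46 replicate 1 (0.020) or s47 replicate 3 (0.015). Small RNAs of nucleoli and Cajal bodies, which guide the modification of ribosomal and spliceosomal RNA, were examined after their values were seen. Of 146 tested, 94 were below 0 and 52 above, against 7913 below and 7475 above among all 15388 genes tested. The medians of these small RNAs within numbers 1, 2 and 3 were -0.13, -0.099 and 0.017. With the block 6 were lower with s46, SCARNA21, SCARNA5, SCARNA6, SCARNA7, SNORD17 and SNORA12, and 0 were higher. Over all genes tested 0.604% were lower and 0.351% higher. SCARNA21 stood at 23.6, 39.9 and 36.6 CPM with s46 and at 35.6, 48.2 and 54.6 CPM with s47, and did not pass without number 3 (adjusted p 0.217). None of the 145 small RNAs tested without number 3 passed, and 3 of 146 passed with DESeq2 and the block.

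Of 27 gene lists, 26 had tested members, and 17 of these had no member past the threshold with the block. Their medians ran from -0.17 (NK and cytotoxic markers, 4 tested) to 0.078 (erythroid markers, 2 tested). They took in interferon-stimulated genes and RNA sensors (median -0.031 over 37), p53 targets (-0.049 over 20), BCL2 family genes (-0.058 over 13), heat-shock chaperones (-0.0017 over 23), the amino acid and integrated stress response (0.012 over 22), MYC and ribosome biogenesis (-0.0068 over 32), G2/M genes (-0.045 over 32), hypoxia and glycolysis (0.072 over 25), T-ALL tumour suppressors (-0.0045 over 21), T-lineage markers (-0.021 over 16), mature T-cell genes (-0.022 over 20), lineage transcription factors (-0.044 over 23), Toll-like receptors (-0.090 over 10) and mitochondrial transcripts (-0.080 over 15).

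Beside the histone and cholesterol lists, 7 lists had 1 or 2 members past the threshold with the block, against 0.351% higher and 0.604% lower over all genes tested. DROSHA, which cuts microRNA precursors in the nucleus, was the 1 of 20 microRNA pathway genes, at 63.4, 54.0 and 53.5 CPM with s46 and 66.8, 69.0 and 65.9 CPM with s47. AGO2, the Argonaute that cleaves targets, differed by 0.20 ± 0.057 (SE; edgeR adjusted p 0.138 with the block). NOTCH3, 1 of 13 NOTCH genes, was lower with s46 (log2 difference -0.235), and STAT4, 1 of 18 JAK and STAT genes, was higher (0.23). The cortical thymocyte list had a median of -0.11, with 17 of 18 genes below 0, against 7913 of all 15388 genes tested. It gave RAG2, a subunit of the V(D)J recombinase, and DNTT, which adds bases at V(D)J joins. With limma-voom and the block DNTT passed and RAG2 did not, and no gene of the cortical list passed without number 3. In fits without the block the median of that list was -0.32 without s46 replicate 3 and 0.065 without s47 replicate 3. DROSHA, NOTCH3 and STAT4 did not pass with DESeq2 and the block (adjusted p 0.158, 0.0734 and 0.0660) or without number 3. DROSHA passed in 4 of 11 blocked fits, STAT4 in 7 and NOTCH3 in 8.

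The 23 genes that an earlier analysis of these libraries found changed with both siRNAs against scrambled had a median difference of -0.053 between the siRNAs. With the block 0 were higher with s46 and 2 lower, DNTT and IGLL1. DNTT stood at 29.6, 16.3 and 23.3 CPM with s46 and at 35.7, 21.4 and 32.4 CPM with s47 (log2 difference -0.38 ± 0.077 SE; edgeR adjusted p 0.00865 with the block). IGLL1, a surrogate light chain gene that is also on the B-cell marker list, stood at 9.79, 18.7 and 10.7 CPM against 17.4, 21.5 and 14.6 CPM. It passed in 6 of 11 blocked fits, and not with DESeq2 (adjusted p 0.0546) or limma-voom (0.0549), without number 1 (0.221) or without number 3 (0.365). DNTT did not pass without number 3 (0.776). Summed over the 5 tested B-cell markers, the level was 27.0 to 35.4 CPM with s46 and 35.9 to 42.8 CPM with s47. IGLL1 was 1 of the 5, with means of 13.0 (s46) and 17.8 CPM (s47) within summed means of 31.5 and 38.9 CPM. Scaled with the scrambled libraries, mean DNTT was 239% of scrambled with s46 and 308.5% with s47, and mean IGLL1 245% and 334%.

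Among the rest of the 23, the ends were TC2N, at 2.64, 3.31 and 3.43 CPM against 3.71, 4.56 and 5.41 CPM (log2 difference -0.54 ± 0.16 SE; edgeR adjusted p 0.158 with the block), and PRKCQ, a T-cell receptor signalling kinase (0.22 ± 0.068 SE; adjusted p 0.227 with the block). The receptor genes IL7R, TSHR, CCR4 and IL9R differed by -0.086, -0.076, -0.084 and 0.015 on the log2 scale without the block. Their SEs in that fit were 0.13 to 0.15, so differences of that size lay within its error. With the block they differed by -0.081, -0.084, -0.094 and 0.016, with SEs of 0.057 to 0.084, and none of them passed.

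Each 7-letter word was next looked up in the longest annotated 3′ UTR of 10854 tested protein-coding genes. Words in at least 100 genes, 15731 in all, were ranked by the difference between their holders and other genes, given UTR length, base composition and level, divided by the standard error of that value. A word with many holders can therefore rank beyond one that departs further but has few. The ranking used the same libraries that it describes, so it carries no test. The word AATCACT ranked highest, and AACCGCA lowest with the block and second lowest after GCCCACC without it. The sites below show AATCACT, in capitals, in the 3′ UTRs of 3 genes that were higher with s46, AACCGCA in those of 2 genes that were lower, and both in TLX1 itself.
SLAIN2, AATCACT, chr4:48422284-48422290, plus strand: ggtaatcatacAATCACTctccatagaat
EIF4G1, AATCACT, chr3:184335224-184335230, plus strand: tattttctgaaAATCACTctcgggactgc
RRAS2, AATCACT, chr11:14278195-14278201, minus strand: tgagactctgaAATCACTttcagtattcc
WSB2, AACCGCA, chr12:118033475-118033481, minus strand: atgtattcttaAACCGCAtgactattcag
HINT1, AACCGCA, chr5:131159321-131159327, minus strand: aataattttaaAACCGCAtacataataaa
TLX1, AATCACT, chr10:101136874-101136880, plus strand: gactcgaccaaAATCACTagcgtcacgtc
TLX1, AACCGCA, chr10:101132079-101132085, plus strand: ggatggagagtAACCGCAgatacacaaag
TLX1, AACCGCA, chr10:101136734-101136740, plus strand: ggcagcaagcgAACCGCAtcctcctgcag

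In the transcript ENST00000370196.10 of TLX1, all 3 sites lay in the coding part. In ENST00000467928.2, a shorter coding transcript, the AATCACT site and the second AACCGCA site lay in the 3′ UTR. The reverse complements, AGTGATT and TGCGGTT, were in neither transcript. The word GCCCACC, which ranked lowest without the block, was also in both transcripts, with 2 copies in each. Presence in TLX1 thus did not set the printed words apart from that word. Over 19029 protein-coding genes, the transcript with the longest 3′ UTR held AATCACT anywhere in 19.6%, AACCGCA in 7.65% and both in 1.59%.

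AATCACT was in the 3′ UTR of 1668 tested genes (15.4%, against 13.5% of 19029 coding genes). Their median log2 difference was 0.026, and 62.8% were above 0, while the other 9186 genes had a median of -0.0092 with 45.4% above 0. The median was 0.022 with 1 copy (1338 genes) and 0.044 with 2 or more (330 genes, 71.5% above 0). Genes with the word in the coding part and none in the 3′ UTR had a median of 0.0043 (607 genes), and genes without it anywhere -0.010. The 3′ UTRs of holders were longer, with a median of 3278 against 1109 bases. When genes were put in 4 equal bins of 3′ UTR length, the holders' median was above that of the others in each, at 0.038 against -0.010 in the shortest bin (54 holders) and 0.027 against -0.0023 in the longest (990 holders).

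**Figure D4:**
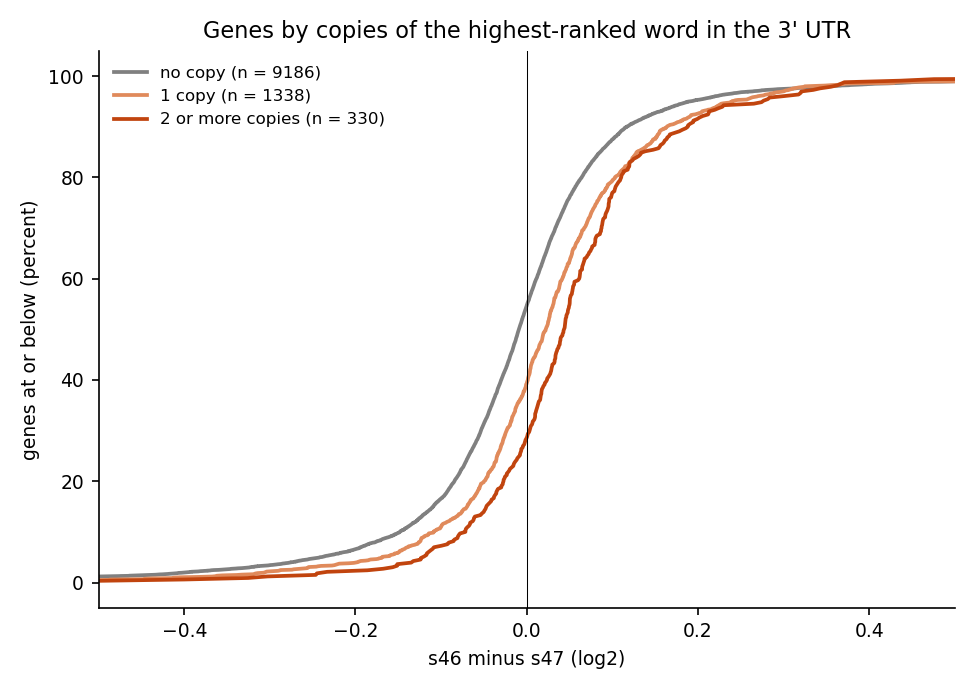
Share of genes (percent, vertical axis) at or below each log2 difference, s46 minus s47 (horizontal axis), for genes with no copy, 1 copy or 2 or more copies of the highest-ranked word in the 3′ UTR. The curves shift to the right with copies, from a median of -0.0092 with none to 0.044 with 2 or more.

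Of the 54 genes that were higher with s46 with the block, 34 (63.0%) held AATCACT in the 3′ UTR, 12 of them in 2 or more copies, and 6 of 66 lower genes with a 3′ UTR did (9.09%). These groups differed in 3′ UTR length, with a median of 2747 bases in the higher and 1295 in the lower genes. Of the 66 lower genes 21 were histones, and 4 of the other 45, whose median 3′ UTR was 1502 bases, held the word. The 34 made up 2.04% of holders, against 0.218% of other genes, with no matching for 3′ UTR length. AATCACT was picked on these same differences, which favours holders among the higher genes. SLAIN2 and TSC1 held the word in 2 copies, PLEKHA8 and PAFAH1B1 in 4, and EIF4G1, RRAS2, DDHD2, PDE3B and RRAGD in 1. RGS1, PDE4D and SYTL3, the 3 largest differences among the higher genes, did not hold it. UNG, the uracil-DNA glycosylase, held 1 copy and stood at 213.4, 208.6 and 249.5 CPM with s46 and at 180.7, 88.7 and 135.2 CPM with s47, but did not pass (log2 difference with the block 0.78 ± 0.28 SE; edgeR adjusted p 0.747).

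The offset of AATCACT holders differed between the numbers. Given length, composition and level, it was 0.016, 0.064 and 0.047 in numbers 1, 2 and 3, and the word ranked 928th, 1st and 1st of 15731. By library, holders stood above the other genes, relative to each gene's mean over the 6 libraries, by 0.029, 0.020 and 0.014 with s46. With s47 the values were 0.013, -0.044 and -0.032, so s47 replicate 1 lay close to the s46 libraries and apart from s47 replicates 2 and 3. Unadjusted medians gave another order, with 0.043, 0.0077 and 0.061 in numbers 1, 2 and 3. The reverse complement AGTGATT ranked 5407th from the highest.

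Overlapping words ranked next: ATCACTA (820 holders) was the second and AAATCAC (1617) the third. Among the letters before AATCACT the holders' medians were 0.031 for A, 0.023 for C, 0.023 for G and 0.038 for T, and among the letters after it 0.038 for A, 0.018 for C, 0.031 for G and 0.025 for T. In the RefSeq set of mature microRNAs, hsa-miR-8062 was the 1 entry whose bases 2 to 8 pair with AATCACT, and none paired with AACCGCA. Its mature sequence is printed, as given by RefSeq on GRCh38.p14, to show the match, with those bases in capitals.
hsa-miR-8062: cAGUGAUUugaggauuauugc

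AACCGCA was in the 3′ UTR of 190 tested genes (1.75%, against 1.66% of all coding genes). Their median was -0.034 with 36.8% above 0, against -0.0036 and 48.3% for the others. The 5 genes with 2 or more copies are too few to describe by copy number. In numbers 1, 2 and 3 the offset given length, composition and level was -0.034, -0.078 and -0.033. The word ranked 278th, 2nd and 275th from the lowest of 15731 in those numbers. The 3 s46 libraries stood at -0.0031, -0.044 and -0.025 and the 3 s47 libraries at 0.031, 0.034 and 0.0075. Unadjusted medians overlapped between the groups, at 0.020, -0.026 and -0.044 with s46 and 0.027, 0.037 and -0.018 with s47. The word was picked for its difference between the groups in these libraries.

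WSB2, HIST1H4E, HINT1, DPYSL2 and SMIM10L1 held AACCGCA and were lower with s46 with the block, 5 of 66 lower genes with a 3′ UTR (7.58%), and 1 of 54 higher genes held it (1.85%). HINT1, a nucleotide hydrolase, stood at 188.0, 185.8 and 232.9 CPM with s46 and at 239.4, 215.2 and 280.5 CPM with s47 (log2 difference -0.28 ± 0.046 SE; edgeR adjusted p 0.00123 with the block). None of the 5 lower holders passed without number 3 (adjusted p 0.272 to 0.787). The word GCCCACC, the lowest without the block, was in 1694 genes, and their median differed from that of the others by -0.0023. Its adjusted difference was -0.017, smaller in size than the -0.044 of AACCGCA in the same fit.

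**Figure D5:**
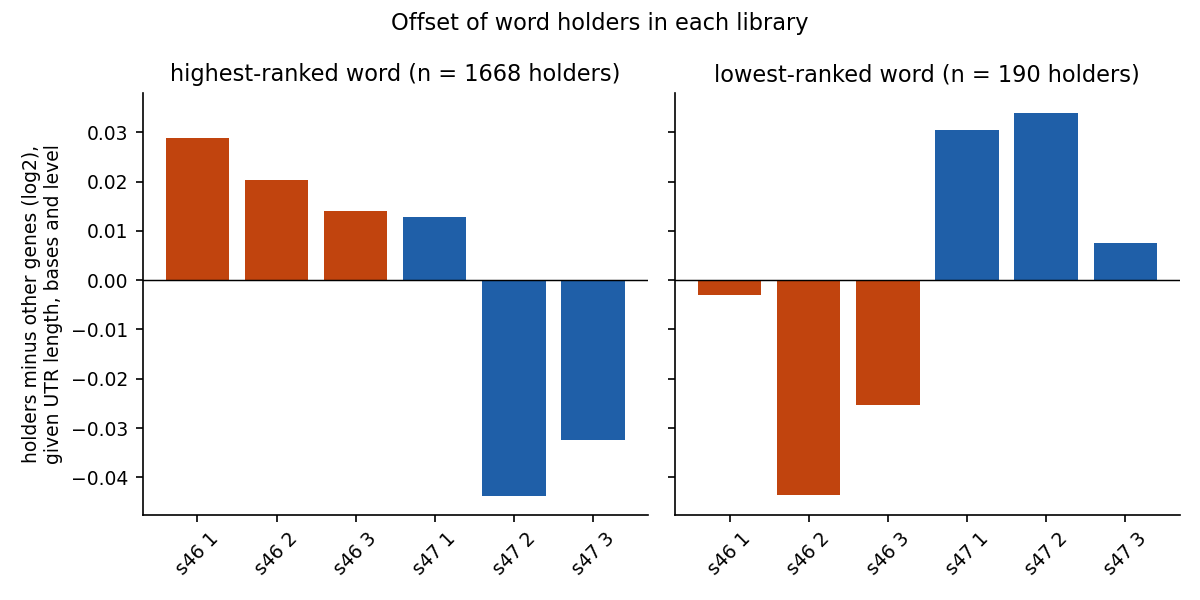
Offset of word holders from other genes in each library (log2, vertical axis, given 3′ UTR length, base composition and level, as deviation from each gene's mean over the 6 libraries), for the highest-ranked word at left and the lowest-ranked with the block at right. Bars are red for s46 and blue for s47; s47 replicate 1 is at 0.013 for the highest-ranked word, and the other 2 s47 libraries are at -0.044 and -0.032.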

How the data were processed

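Stranded libraries were made from total RNA after removal of ribosomal RNA, per the labels' protocols. Each deposited file holds unnormalized gene counts for 1 library. The submitters' processing notes name GRCh38 as the build; which aligner and counter were used is not given in the sources at hand. The sense column was used, and the first 4 lines, which name no gene, were left out. Multimapping reads (6.36% to 7.34% of reads) stand apart from genes in the deposited counts, so near-identical genes may be undercounted. Gene IDs were matched to GENCODE 29 (57492 of 58096), which gave symbols and transcripts.

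The 3 s46 libraries were compared with the 3 s47 libraries by edgeR 4.0.16 (quasi-likelihood F test, TMM, filterByExpr minimum count 10) in R 4.3.3, with Benjamini-Hochberg adjustment over 15388 genes and a threshold of 0.05. The group was the only term, or the replicate number was added as a block. Deviations from group means correlated at 0.444, 0.372 and 0.372 between libraries of the same number, and at -0.318 to -0.0055 between others. Deviations cancel within each group, so positive values for the same number go with negative values between others. The shared numbers come from the labels, which do not say what a number marks. CPM values are TMM-scaled, and replicates correlated at 0.986 to 0.991 within groups.

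Members and lists were chosen with earlier results of these data known. Named genes are TLX1, the 12 of lowest p each way, the 12 of lowest p each way past the threshold with the block, the genes changed with both siRNAs, the ends of each list and up to 8 holders per word; others were named after their values were seen. Some members of the lists are counted with them but not reported here by name. Words were ranked by least squares in Python 3.11.15 with numpy 2.4.6.

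The fits were tested on simulated data with 100 genes changed 2-fold and 100 changed 1.5-fold. With dispersions set per gene (15102 genes), the group-only fit found 72 and 25 with 0 false calls, and the block found 98 and 93 with 40 false calls. With dispersions scattered about the trend (15100 genes), a model adopted after the first result was seen, the group-only fit found 74 and 33 with 0 false calls, and the block found 100 and 86 with 11. The word ranking, tested on simulated data with 1 word raised by 0.04, put that word in rank 1 of 15731. That word was drawn from words with many more holders than the 190 of AACCGCA, and the noise was independent between genes. Recovery of a word with as few holders as AACCGCA was not tested.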

Additional observations from a re-analysis of the deposited data

How the results depend on the processing

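With the group as the only term, the count of genes past the threshold was 0 and stayed 0 with all 9 libraries, with library totals, RLE scaling, a mean of at least 100 reads, unstranded counts, limma-voom, and without any 1 library or any 1 number (range 0 to 0). It was 6 with no filter on low counts and 3 with DESeq2. With the replicate block it was 147 by edgeR, 156 by limma-voom (131 of them among the 147) and 104 by DESeq2 (101 among the 147). Members of the gene lists past the threshold numbered 0 without the block, and 52, 57 and 35 with it by edgeR, limma-voom and DESeq2.

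The 147 became 0 when all 9 libraries were fitted with the replicate block. The other alternatives of the blocked fit given here were chosen after seeing the data. The 147 became 145 with library totals, 151 with RLE, 157 with a mean of at least 100 reads and 128 with unstranded counts. They became 237 with no filter, 0 with no replicate block, and 13 to 307 when both libraries of 1 number were left out; the cause was not tested. The share of calls higher with s46 was 36.7%, against 44.1% with library totals, 49.8% with no filter, and 57.2%, 47.9% and 61.5% without number 1, 2 and 3.

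TLX1 differed by 0.013 to 0.22 without 1 library and did not pass under any alternative run. The offset of AATCACT holders from other genes, 0.036, was 0.014 (without s46 replicate 1) to 0.056 (without s46 replicate 2 or s47 replicate 1), and that of AACCGCA holders, -0.030, was -0.0058 (without s47 replicate 2) to -0.047 (without s46 replicate 1); each moved by less than its SD over the 3 numbers. Depth was similar in all 6 libraries, and the group-only interval lay within 1.5-fold for 62.9% of genes.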

Other observations

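DDIT4, an inhibitor of mTORC1 that is induced by stress, and SLC2A3, a glucose transporter, had large differences that did not pass the threshold. DDIT4 stood at 192.6, 112.4 and 141.8 CPM with s46 and at 94.7, 71.3 and 117.7 CPM with s47 (log2 difference with the block 0.65 ± 0.19 SE; edgeR adjusted p 0.662). SLC2A3 stood at 66.2, 29.4 and 41.2 CPM against 23.8, 22.1 and 31.8 CPM (adjusted p 0.793 with the block). In both genes the number 1 pair was the furthest apart. CD8B, the lowest member of the cortical thymocyte list, was at 2.11, 2.15 and 2.04 CPM with s46 and at 2.49, 2.81 and 3.21 CPM with s47, and did not pass.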
